A study of Mus musculus with 6 samples.

Results

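The genes described here encode neurotrophic factors and their receptors: the secreted factors Bdnf, Ntf3, Gdnf and Nrtn, and the receptors Ntrk2, Ntrk3, Ngfr, Gfra1 and Gfra2. They were chosen by name, 9 genes in all. Of these, 7 are among the 14549 genes of the deposited table, and Gdnf and Nrtn were not analysed here. Their RNA was measured by sequencing of polyadenylated RNA from the epicardium and subepicardium, the outer layers of the heart, dissected from mouse embryos at stage E16.5 of gestation. The 3 control libraries (numbers 1, 2 and 4) are labelled wild-type. The 3 double-knockout libraries (dKO 1, 2 and 3) are labelled Meis1-Meis2 KO and came from embryos with floxed alleles of both genes (Meis1 fl/fl, Meis2 fl/fl) and WT1-Cre. The sources used here do not say whether control embryos carried floxed alleles or the Cre, nor which exons were removed. WT1-Cre acts in cells with a history of Wt1 expression, such as epicardium and its derivatives. Cells of the dissected layer without that history would keep both genes, but which cells lost them was not measured here. Each library pooled 2 hearts of 1 genotype, and the spread between libraries is a spread between pools.

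Neurotrophins are secreted as precursors that proteases cut to the mature factor. BDNF and neurotrophin-4 act through the receptor tyrosine kinase TrkB (Ntrk2) and neurotrophin-3 (Ntf3) through TrkC (Ntrk3), and all of them also bind the low-affinity neurotrophin receptor Ngfr. GDNF and neurturin (Nrtn) bind membrane-anchored co-receptors, GFRA1 (Gfra1) and GFRA2 (Gfra2), which present them to the kinase RET. In the developing heart, BDNF is known for its role in the coronary vessel wall, neurotrophin-3 and TrkC for cardiac morphogenesis, and neurturin with GFRA2 for parasympathetic innervation.

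Start-site sequences are shown for the 3 genes whose RNA differed between the genotypes by the test given further on, because the deleted factors bind DNA. They come from RefSeq (GRCm38.p6), which holds windows for 7 of the 9 genes: Bdnf, Ntf3, Ngfr, Ntrk2, Gdnf, Nrtn and Gfra1. Each printed stretch lies within the 250 bases before a RefSeq start site and outside the GENCODE exons of its gene, and is written 5′ to 3′ on the strand of the gene. Only the stretch of the first Bdnf start lies ahead of the annotated span of its gene, and the others lie inside it. The first Ntf3 start, where 166 of the 250 bases are exonic, is not printed. Capitals mark TGACAG, the Meis half-site, searched on both strands. The Bdnf gene has 7 RefSeq start sites, of which the third is shown for its half-sites and the first for comparison.
Bdnf, the third start (chr2:109692186-109692435, plus strand): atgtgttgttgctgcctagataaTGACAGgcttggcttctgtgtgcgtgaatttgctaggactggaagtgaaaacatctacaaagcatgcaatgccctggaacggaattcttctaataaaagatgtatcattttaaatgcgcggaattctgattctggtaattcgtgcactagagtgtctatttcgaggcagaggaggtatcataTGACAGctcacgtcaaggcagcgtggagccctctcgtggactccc
Bdnf, the first start (chr2:109674450-109674699, plus strand): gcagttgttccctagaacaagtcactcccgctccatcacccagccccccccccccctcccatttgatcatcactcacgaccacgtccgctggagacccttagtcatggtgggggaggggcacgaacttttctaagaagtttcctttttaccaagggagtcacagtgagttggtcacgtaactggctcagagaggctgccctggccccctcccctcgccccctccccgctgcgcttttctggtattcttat
Ntf3, the second start (chr6:126164961-126165210, minus strand): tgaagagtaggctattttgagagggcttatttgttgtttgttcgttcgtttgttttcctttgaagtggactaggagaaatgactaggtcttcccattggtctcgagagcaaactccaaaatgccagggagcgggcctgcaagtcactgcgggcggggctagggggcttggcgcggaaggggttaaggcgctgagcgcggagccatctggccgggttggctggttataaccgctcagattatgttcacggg
Gfra1 (chr19:58455399-58455460, minus strand): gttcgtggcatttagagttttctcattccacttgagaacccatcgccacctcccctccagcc

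Of the 15 windows of 250 bases belonging to these genes, 1 held the half-site, that of the third Bdnf start, with matches beginning 227 and 45 bases before it. Among all 32851 RefSeq windows of this length, 15.9% held the half-site, and 13.9% of the 13535 windows of genes in the table did. The composite Pbx-Meis letters TGATTGAC were in 0 of the 15 windows and in 0.691% of all. A composite followed by the letters AG would also hold the half-site. These matches are descriptions of letters in short windows, and no binding was measured.

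Values are the deposited normalised read counts, given per 1e6 reads, and errors are SD over 3 libraries. The recovered totals behind them were 13146322 to 20635676 reads per library. The 7 genes had 2 to 355 reads per library, and between 9.88% (Bdnf) and 32.0% (Ntrk3) of the genes in the table had a lower mean; a single read was worth 0.0487 to 0.0740. A log2 change is the dKO mean minus the control mean of log2(value + 1), which makes changes of low genes look smaller than they are, with its standard error (SE) from limma. Its p-value carries a Benjamini-Hochberg adjustment across the 14549 genes. The same genes were also tested with edgeR's quasi-likelihood test on whole reads recovered from the values. An exact permutation test of 3 against 3 libraries cannot give a p below 0.1.

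Of the genes targeted, Meis2 was lower in the dKO libraries and Meis1 did not pass the test. Meis2 was at 86.1, 85.6 and 63.3 in controls 1, 2 and 4 and at 44.5, 34.8 and 44.5 in dKO 1, 2 and 3 (limma adjusted p = 0.00352). Meis1 had control values of 106, 63.6 and 63.4 and dKO values of 58.5, 74.1 and 64.97, which overlap (limma adjusted p = 0.521), and its direction turned without control 1 (log2 change 0.05). Reads over all exons do not measure the deleted part, and epicardial markers, given further on, were also lower in the dKO libraries; their part in the fall of Meis2 was not tested.

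Of the 7 genes, Gfra1 and Bdnf fell in the dKO libraries, Ntf3 rose, and Ntrk2, Ntrk3, Ngfr and Gfra2 did not pass the threshold of 0.05. Of all genes tested, 22.0% passed it, 9.81% higher and 12.2% lower in dKO. With edgeR the same 3 genes passed, against 20.3% of the table. For 4 of the 7 genes the groups did not overlap, which held for 40.4% of all genes. Since the table lists genes that reached at least 1.02 in 3 or more libraries, a gene low in 1 group could enter through the other, as Bdnf did, so these counts describe the genes listed and support nothing further. In bulk RNA, fewer cells of a type and less RNA per cell cannot be told apart.

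**Figure D1:**
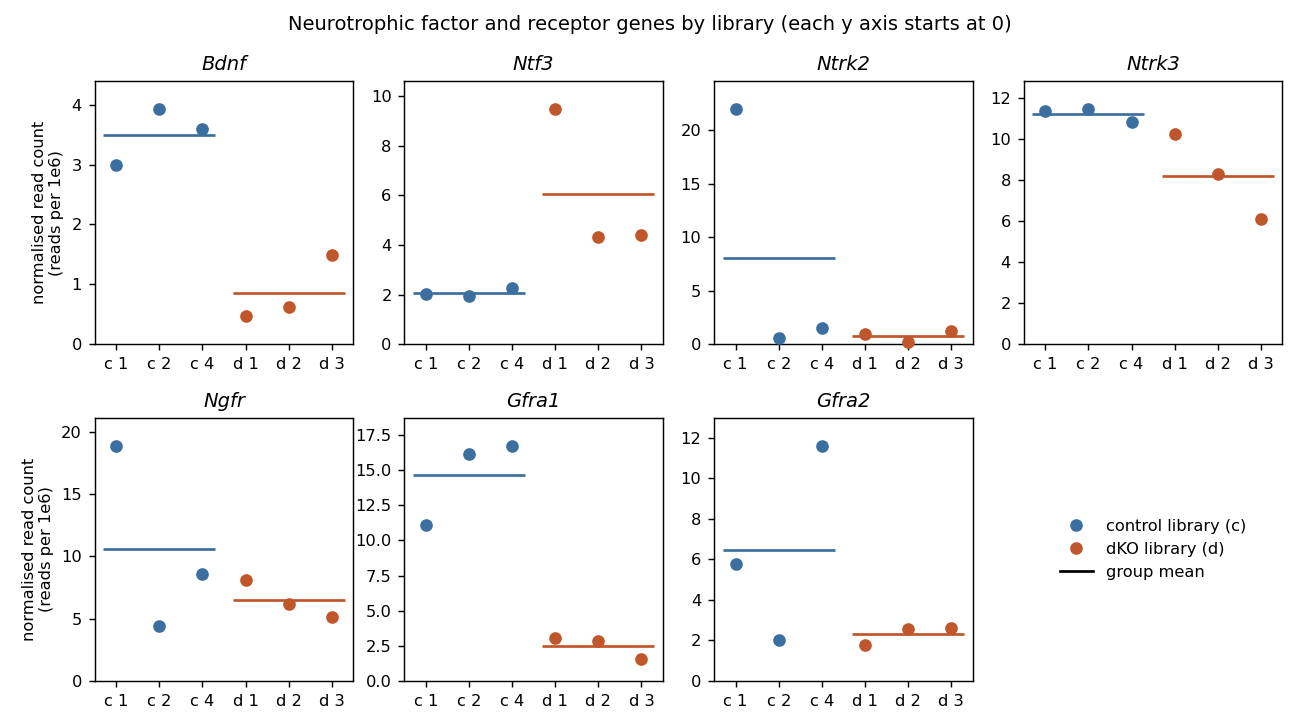
Normalised read count (reads per 1e6, y axis from 0) of each gene in the 3 control libraries (c, blue) and the 3 dKO libraries (d, orange), with group means as lines. Gfra1 and Bdnf are lower and Ntf3 is higher in all dKO libraries, and the control mean of Ntrk2 rests on control 1, at 21.95.

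Among the factors, Bdnf, the ligand of TrkB (GRCm38 chromosome 2, 109674700 to 109727007), was at 2.99, 3.93 and 3.59 in controls 1, 2 and 4 and at 0.466, 0.629 and 1.49 in dKO 1, 2 and 3. Every control lay above every dKO library, and dKO 3 was the highest of its group. The reads behind them numbered 48, 61 and 56 for controls and 7, 8 and 30 for dKO. The mean fell from 3.50 ± 0.471 to 0.860 ± 0.548 (SD, n = 3), 24.6% of control (log2 change -1.31, SE 0.31, limma adjusted p = 0.0134; exact permutation p = 0.1). On the read scale of edgeR the log2 change was -2.03 (edgeR adjusted p = 0.0352). The call was lost without dKO 2 (limma adjusted p = 0.0501), and in edgeR without control 1 (edgeR adjusted p = 0.0573). The annotated exons of Bdnf share 14.4% of their bases with Gm45346, and a whole-gene count does not tell its start sites apart.

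Ntf3, which encodes neurotrophin-3 (chromosome 6, 126101412 to 126166910), moved the other way. Controls 1, 2 and 4 had 2.01, 1.95 and 2.25 (32, 30 and 35 reads), and dKO 1, 2 and 3 had 9.48, 4.33 and 4.41 (152, 58 and 90 reads). The controls were close together, all dKO libraries lay above them, and dKO 1 was the highest. The mean rose from 2.07 ± 0.163 to 6.07 ± 2.95 (SD, n = 3), 293% of control (log2 change 1.13, SE 0.32, limma adjusted p = 0.0288; exact permutation p = 0.1), and by 1.56 with edgeR (edgeR adjusted p = 0.0311). Leaving out any of the 3 controls ended the Ntf3 call, with limma adjusted p = 0.0545 (control 1 left out), 0.0749 (control 2) and 0.0581 (control 4). Leaving out dKO 1 ended it too (log2 change 0.81, limma adjusted p = 0.0777), and so did leaving out control 1 and dKO 1 together (0.79, limma adjusted p = 0.101). The call held when dKO 2 (limma adjusted p = 0.0415) or dKO 3 (limma adjusted p = 0.0454) was left out. The library with the highest Ntf3, dKO 1, also had 252 genes at least 4-fold below both other dKO libraries, against 88 in dKO 2 and 65 in dKO 3; the part of this in the Ntf3 values was not tested.

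Among the receptors, Gfra1, the co-receptor of GDNF (chromosome 19, 58235604 to 58455909), showed the largest called change of the 7 genes. It was at 11.1, 16.2 and 16.7 in controls 1, 2 and 4 and at 3.08, 2.85 and 1.58 in dKO 1, 2 and 3, from 179, 253 and 263 reads and 49, 38 and 32 reads. The highest dKO library was well below the lowest control. The mean fell from 14.7 ± 3.11 to 2.50 ± 0.804 (SD, n = 3), 17.1% of control (log2 change -2.17, SE 0.28, limma adjusted p = 0.000536; exact permutation p = 0.1). Gfra1 passed under each of 16 other settings and sets of libraries, with log2 changes from -2.58 to -1.86, edgeR fits with libraries left out not included. The setting without a filter on low values equals the reported fit. Gm16277 shares 7.6% of its exonic bases.

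Gfra2, the co-receptor of neurturin (chromosome 14, 70890120 to 70979838), was at 5.77, 2.01 and 11.6 in controls 1, 2 and 4 and at 1.77, 2.55 and 2.61 in dKO 1, 2 and 3. Control 2 lay among the dKO libraries and control 4 was far above all. The change of -0.95 (SE 0.45, 95% interval -1.96 to 0.06) did not pass (limma adjusted p = 0.166, edgeR adjusted p = 0.104). It passed without control 2 (log2 change -1.49, limma adjusted p = 0.0208) and with DESeq2 (log2 change -1.50, DESeq2 adjusted p = 0.0427), and was -0.46 without control 4.

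Ntrk2, the BDNF receptor TrkB (chromosome 13, 58806569 to 59133970), was at 21.95 in control 1, against 0.606 and 1.49 in controls 2 and 4 and 0.964, 0.185 and 1.19 in dKO 1, 2 and 3. Only control 1 stood above the others. Control 1 had 355 Ntrk2 reads, and the other 5 libraries had 2 to 24. The change was -1.39 (SE 0.81, limma adjusted p = 0.256) and -0.22 without control 1 (limma adjusted p = 0.777), with edgeR values of -3.36 (edgeR adjusted p = 0.0880) and -0.41 (edgeR adjusted p = 0.828). Control 1 had 70 genes at least 4-fold above both other controls, against 25 in control 2 and 41 in control 4, and 108 at least 4-fold below both, against 95 and 94. The deposited values are per gene, so truncated TrkB without a kinase and the full receptor are counted together.

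Ngfr, the low-affinity receptor of all neurotrophins (chromosome 11, 95568818 to 95587735), was also highest in control 1, at 18.9, with 4.37 and 8.60 in controls 2 and 4 and 8.11, 6.18 and 5.09 in dKO 1, 2 and 3. The dKO libraries lay between control 2 and control 4. The change was -0.45 (SE 0.41, 95% interval -1.38 to 0.47, limma adjusted p = 0.479) and 0.03 without control 1 (limma adjusted p = 0.962).

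Ntrk3, the neurotrophin-3 receptor TrkC (chromosome 7, 78175959 to 78738012), had values of 11.4, 11.5 and 10.8 in controls 1, 2 and 4, against 10.2, 8.32 and 6.11 in dKO 1, 2 and 3. All dKO libraries were below all controls, and dKO 1 was near them. The change of -0.43 (SE 0.23, 95% interval -0.94 to 0.08) did not pass (limma adjusted p = 0.212, edgeR adjusted p = 0.237).

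**Figure D2:**
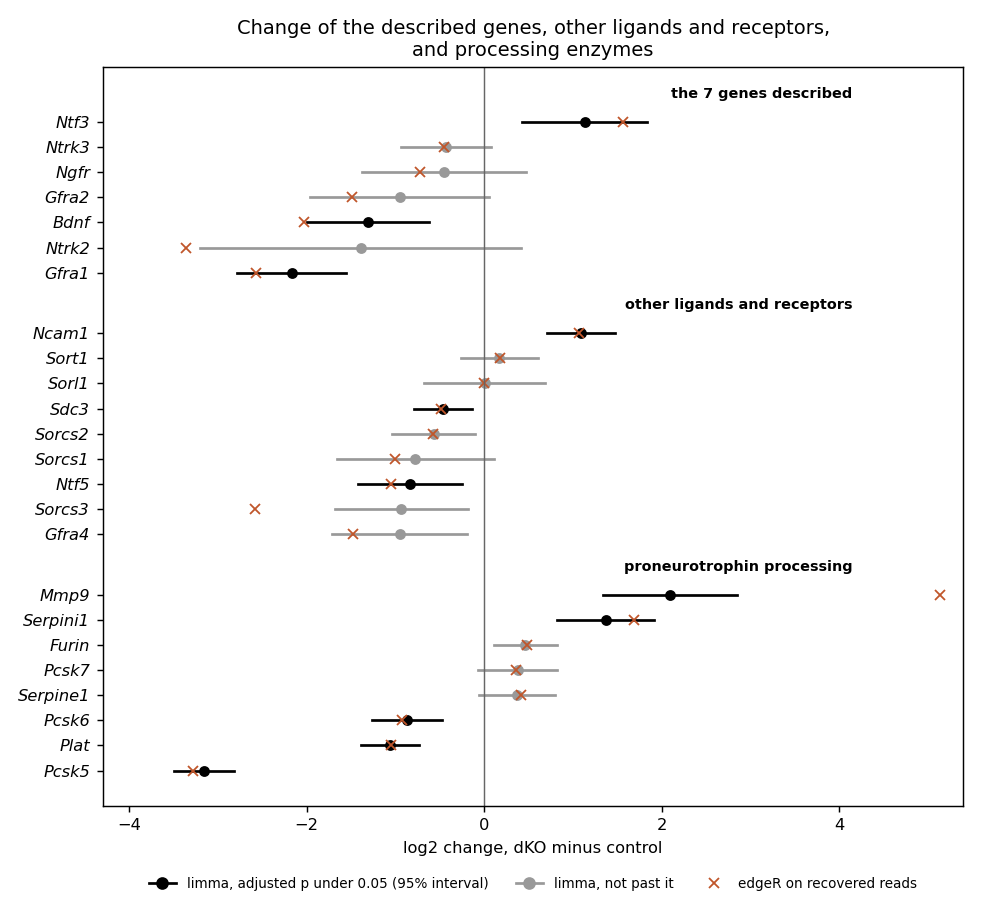
Log2 change (dKO minus control, x axis) of the 7 genes, of 9 other ligands and receptors of the same families and of proneurotrophin processing genes. Points and bars are limma estimates with 95% intervals, black where the adjusted p is under 0.05, and crosses are edgeR estimates, which lie farther from 0 for low genes. Gfra1 (-2.17) and Pcsk5 (-3.16) are the lowest called genes of the first and the last set.

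Levels of different genes were compared per kilobase of annotated exon, where all transcripts of a gene are merged, which lowers the value of genes with many alternative exons such as Ntrk3. In controls the order ran from Ngfr (3.08 ± 2.16 per kilobase) through Gfra1 (2.68 ± 0.568), Gfra2 (1.82 ± 1.36), Ntf3 (1.21 ± 0.0950), Bdnf (0.563 ± 0.0757) and Ntrk2 (0.416 ± 0.626) to Ntrk3 (0.372 ± 0.0115). Of neighbours in this order, only Ntf3 and Bdnf had ranges over libraries that did not overlap. The places of Ngfr and Ntrk2 rested on control 1. Before division by length, Ngfr was at 18.9 there, against 4.37 and 8.60 in controls 2 and 4. Ntrk2 was at 21.95, against 0.606 and 1.49. In the dKO libraries Ntf3 came first (3.54 ± 1.72 per kilobase), then Ngfr (1.87 ± 0.444), Gfra2 (0.653 ± 0.132), Gfra1 (0.457 ± 0.147), Ntrk3 (0.272 ± 0.0682), Bdnf (0.138 ± 0.0881) and Ntrk2 (0.0405 ± 0.0274). Ranges did not overlap between Ntf3 and Ngfr, Ngfr and Gfra2, or Bdnf and Ntrk2.

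**Figure D3:**
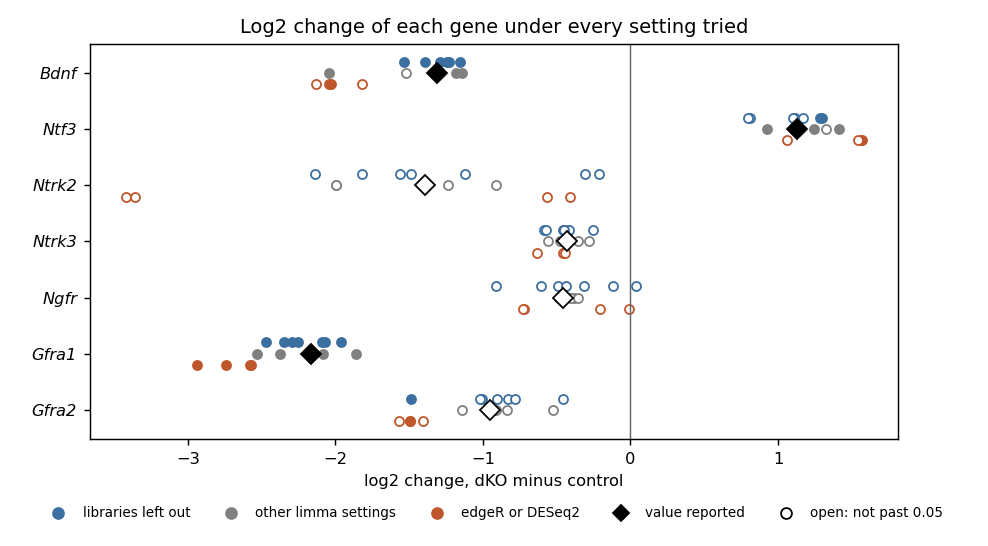
Log2 change (dKO minus control, x axis) of each gene in the reported fit (diamond) and under every alternative (circles: blue with libraries left out, orange for edgeR or DESeq2, grey for other limma settings), filled where the adjusted p is under 0.05. Gfra1 is filled throughout, Ntf3 is open in several settings, and Ntrk2 lies between -3.42 and -0.22.

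Other genes of these pathways were read from the same fit, in 5 lists written out by name. Of 86 listed genes 65 are in the table, and 7 rose and 10 fell, with a median change of -0.04 against 0.00 over all genes tested. The 17 that passed are 26.2% of those in the table, near the 22.0% of all genes, so the counts that follow are descriptions of the lists. The number that passed was 10 without control 4 and 10 without dKO 2. Among other ligands and receptors (10 of 17 in the table), 1 rose and 2 fell, with a median of -0.59. Ntf5, which encodes neurotrophin-4, the other TrkB ligand, fell from 5.54 ± 0.948 to 2.68 ± 0.578 (log2 change -0.83, limma adjusted p = 0.0463), but did not pass with edgeR (edgeR adjusted p = 0.0703). Sdc3, a syndecan that can bind GDNF, fell from 76.9 ± 14.3 to 54.9 ± 2.17 (-0.46, limma adjusted p = 0.0467). Ncam1, a neural cell adhesion molecule that also serves as an alternative GDNF receptor, rose from 127 ± 29.2 to 266 ± 26.4 (1.09, limma adjusted p = 0.00173). The kinase Ret, the co-receptor Gfra3 and the ligand Artn were not analysed here.

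The genes that process proneurotrophins held the largest changes of these lists. Of 8 in the table (11 listed), 3 fell and 2 rose, with a median of 0.37. Pcsk5, a proprotein convertase, had control values of 91.98, 94.4 and 97.6 and dKO values of 8.17, 10.2 and 10.9 (log2 change -3.16, SE 0.15, limma adjusted p = 2.1e-06). Each control was far above each dKO library. The convertase gene Pcsk6 fell from 27.0 ± 4.09 to 14.3 ± 1.29 (-0.87, limma adjusted p = 0.00648), and Plat, the tissue plasminogen activator whose product plasmin cuts proBDNF, from 182 ± 7.72 to 87.9 ± 17.6 (-1.06, limma adjusted p = 0.000867). Serpini1, neuroserpin, an inhibitor of that activator, rose from 2.64 ± 0.174 to 8.46 ± 1.50 (1.37, limma adjusted p = 0.00349). Mmp9, a matrix metalloproteinase, had 0, 0 and 5 control reads and 79, 30 and 98 dKO reads (2.10, limma adjusted p = 0.002). Its control values were 0.0309, 0.0319 and 0.349, so it entered the table only through the dKO libraries, where it was high. Its place among the genes that rose therefore supports nothing further. Furin, the convertase common to most tissues, was at 24.6, 30.7 and 30.9 in controls and 44.8, 35.2 and 39.97 in dKO libraries and did not pass (0.46, limma adjusted p = 0.0611).

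Among 18 measured adaptors of Trk and RET (22 listed), 3 rose and 0 fell, with a median of 0.30, where 9.81% of all genes rose and 12.2% fell; the share of adaptors that passed was below the 22.0% of all genes. They were the docking protein gene Dok5 (2.67 ± 0.914 to 8.05 ± 0.854, log2 change 1.33), the adaptor Gab1 (102.2 ± 8.42 to 142.9 ± 12.7, 0.48) and Grb2 (64.99 ± 2.45 to 83.1 ± 1.20, 0.35, limma adjusted p = 0.0486). Among 14 measured genes whose products bind or cut the low-affinity receptor (15 listed), 1 rose and 0 fell, with a median of -0.06. It was Bex1 (21.3 ± 10.3 to 40.6 ± 7.20, 0.98, limma adjusted p = 0.0299; edgeR adjusted p = 0.0590), with 18.8% of its exonic bases shared with Tceal7.

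Of 15 measured neurotrophic factors and receptors of other families (21 listed), 5 fell and 0 rose, with a median of -0.35, beside 12.2% of all genes that fell and 9.81% that rose. The cytokine genes Clcf1 (8.71 ± 1.72 to 1.90 ± 0.762, log2 change -1.76) and Ctf1, cardiotrophin (10.9 ± 1.02 to 3.83 ± 1.18, -1.33), fell together with Il6st, their shared receptor subunit (280.2 ± 42.1 to 182 ± 23.1, -0.62). Metrnl, meteorin-like (-0.94), and the growth factor Igf1 (-1.67) also fell. Igf1 was at 436 in control 1, 107 and 111 in the other controls, and 49.6 to 56.6 in the dKO libraries.

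Cell type markers were measured beside these genes, because the dissected layer holds several cell types. The counts that follow stand beside 12.2% of all genes tested that fell past the threshold and 9.81% that rose. Epicardial markers fell in 15 of 16 genes (summed level 2703 to 3933 in controls, 537 to 646 in dKO), and fibroblast markers in 10 of 13 (29455 to 33468 against 12194 to 15748). Cardiomyocyte markers rose in 18 of 20 (6184 to 13796 against 32306 to 35124) and mural markers in 8 of 12 (778 to 1222 against 2311 to 2476). Endothelial markers fell in 1 of 12 (1258 to 1943 against 1521 to 1699), and immune markers in 5 of 11 (579 to 763 against 223 to 309). Schwann cell and neural crest markers fell in 5 of 8 measured genes (15 listed; 402 to 442 against 132 to 152). The sum is mostly Pmp22, which fibroblasts also express (299 to 343 against 84.2 to 109), and Sox10, Foxd3, S100b, Egr2, Pou3f1 and Sox2, among others, were not analysed here. Cdh19, of Schwann precursors, had 0, 1 and 0 reads in the dKO libraries and 27, 29 and 51 in controls, and so entered the table only through the controls. Of 20 neuronal markers 8 are in the table, with 1 higher (Uchl1, with 18.1% of exonic bases shared with Uchl1os) and 2 lower (Gap43 and Nefm, of which Nefm shares 19.2% of its exonic bases with Nefl). Nefm had 35, 19 and 27 reads in controls and 0, 7 and 2 in the dKO libraries, and so entered the table only through the controls. Its place among the lower markers supports nothing further, and it did not pass with edgeR (edgeR adjusted p = 0.0549). The neuronal sums overlapped (59.6 to 68.04 against 52.0 to 64.5), and the defining Tubb3, Th and Chat were not analysed here. Control 1, the library in which Ntrk2, Ngfr and Igf1 were highest, also stood apart from controls 2 and 4 in its cardiomyocyte sum (6184 against 13796 and 13493) and its epicardial sum (3933 against 2847 and 2703). The part of that in those 3 genes was not tested. The part of the shifts between the groups in the changes of Gfra1, Bdnf and Ntf3 was not tested.

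**Figure D4:**
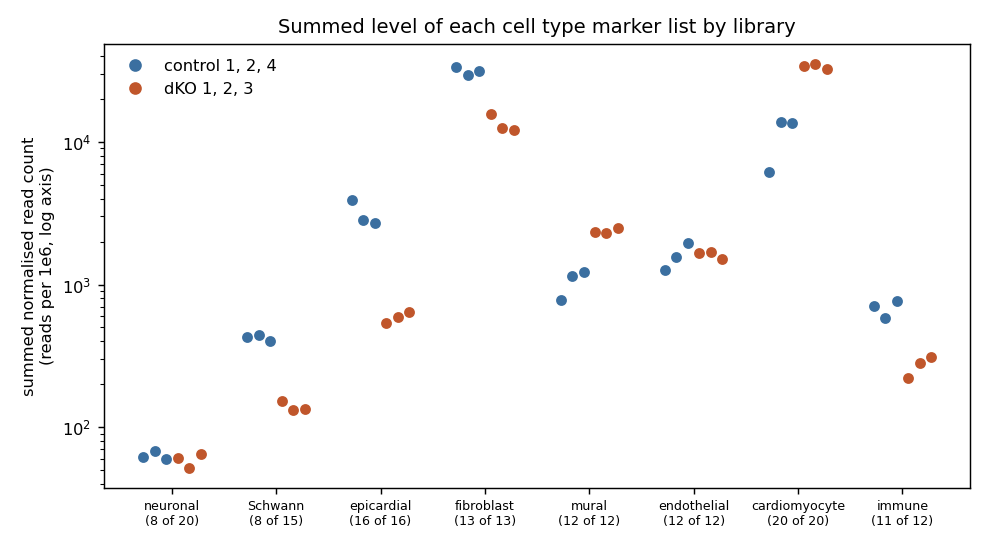
Summed normalised read count (per 1e6 reads, log axis) of each cell type marker list, with the number of listed genes in the table, in the 3 control (blue) and 3 dKO libraries (orange). Epicardial, fibroblast, Schwann and immune sums are lower and mural and cardiomyocyte sums higher in all dKO libraries, while neuronal and endothelial sums overlap.

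For each gene that changed, the 3 genes with the nearest profile over the 6 libraries were found among 10985 candidates. The measure was the root mean square difference of log2(value + 1), centred on each gene's mean. The added 1 shrinks the profiles of low genes such as Bdnf and Ntf3, while candidates had a mean of at least 5. Which genes would be nearest to them without it was not tested. Nearest to Gfra1 were Wdr86 (0.14), Thy1 (0.15), a surface marker of fibroblasts, and Frzb (0.16), a secreted Wnt antagonist. Frzb was at 21.2, 35.1 and 40.7 in controls and at 7.99, 7.06 and 5.82 in the dKO libraries. Nearest to Bdnf were Rab40b (0.14), Kcne1l (0.15) and Sp110 (0.16), and nearest to Ntf3 were Hint2 (0.17), Rcor2 (0.17) and Kifc5b (0.18). Hint2, like Ntf3, was highest in dKO 1, at 29.9, with 17.7 and 17.3 in dKO 2 and 3 and 7.69 to 10.9 in controls. The measure follows the genotype difference and names no shared control.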

How the data were processed

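Per the labels' protocols, 40 ng of total RNA per pool was made into libraries with a kit not stated to keep strand. Per the submitters' processing notes, cutadapt, RSEM 1.3.1 and GRCm38 were used; the sources used here do not give the annotation, the normalization or the gene filter. The values the authors deposited are a normalised signal, which equalled whole reads plus 0.5, scaled to 1e6 reads, in 100% of 87294 values (tolerance 0.01 reads). The library scaling this implies matched edgeR's TMM factors to the digits written (0.878 to 1.08). Of 14549 genes, 146 have no symbol.

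All 14549 genes met the filter (a value of 1 in 3 libraries) and were fitted with limma 3.58.1 (R 4.3.3, variance trend) on log2 of the value plus 1, dKO against control with no covariate. Adjustment was Benjamini-Hochberg over all genes, two-sided, threshold 0.05. edgeR 4.0.16 (2956 genes called) and DESeq2 1.42.0 on recovered reads were alternatives. The fitting code was tested on simulated data. Named were the 9 genes, list members past the threshold (at most 5 a direction), Ret, Gfra3, Artn, highly expressed markers, and nearest profiles (mean of at least 5, predicted genes excluded); markers at 0 or with other uses, Furin among the processing genes, were named after their values were seen. Some genes of the lists are counted but not reported here by name. The genes and lists were chosen with earlier results of these data known. Positions are from GENCODE M21 (GRCm38).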

Additional observations from a re-analysis of the deposited data

How the results depend on the processing

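Gfra1 kept its direction and passed in 16 of 16 alternatives (edgeR fits with libraries left out are given apart), Bdnf passed in 13 of 15 and Ntf3 in 9 of 15. These tallies include the fit without a filter on low values, which equals the reported fit because all genes met the filter. The number of the 7 genes past the threshold, 3 as reported, was 1 with a filter at 5 in 3 libraries (3 genes left to test), 1 in edgeR without control 1 and 1 in edgeR without control 1 and dKO 1 together, which were chosen after seeing the data, and 2 to 3 with each library left out in turn. Without control 2 the 3 were Gfra1, Bdnf and Gfra2, and Ntf3 did not pass. The number was 4 with DESeq2, where Gfra2 also passed. For the pathway lists, 17 as reported, it was 10 to 17 with each library left out. Over all genes, 3205 as reported, it was 2167 to 2725.

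With the numbers 1 and 2 of the titles as a replicate block (4 libraries, 1 residual degree of freedom before moderation), 1371 of all genes, 1 of the 7 genes (Gfra1) and 6 of the pathway genes passed. Nothing in the labels says that the numbers pair the pools, and libraries with the same number deviated from their group means with correlations of -0.18 (number 1) and -0.20 (number 2).

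Ngfr (log2 change -0.91 to 0.035 with each library left out) was near 0 without control 1, where its sign turned (0.035, limma adjusted p = 0.962). The sign of Ngfr stayed negative in limma without control 1 and dKO 1 together (-0.12) and in edgeR without control 1 (-0.0076). Meis1 (-0.32 to 0.045) reversed without control 1, at 0.045, without control 1 and dKO 1 together (0.13), and in edgeR on reads without control 1 (0.052) and without both (0.13); the cause was not tested. Bdnf and Ntrk2 had only 2 to 30 reads per dKO library, and the part of counting error in their spread was not tested. The Ntrk2 change also depended on control 1 (log2 change -1.39 with it and -0.22 without it).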
